A study of Mus musculus with 220 samples.

Results

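The 84 genes described here are named as proteins of the cytosolic ribosome or paralogues of such proteins. They were taken from 24049 rows of a single-cell expression table by their symbols. All are annotated as protein coding except Rps4l, a transcribed processed pseudogene. A row was a member when its symbol was Rpl or Rps followed by a number and at most a short suffix, or was Rplp0, Rplp1, Rplp2 or Rpsa. The rule used no measured value, but the members and lists were chosen with earlier results of these data known. Of the members, 51 belong to the large subunit (Rpl and Rplp) and 33 to the small subunit (Rps and Rpsa). The related rows Fau, Rpl36al and Gnb2l1 fell outside the symbol rule and are given beside the members where they bear on them.

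The study profiled lymph node endothelium of C57BL/6 mice, sorted into single cells, each of them captured on the Fluidigm C1 system and sequenced as its own library. There were 4 groups: 32 blood endothelial cells (BEC) from untreated mice, 79 homeostatic high endothelial cells (HEC), also untreated, 65 inflamed HEC taken on day 3 after skin treatment with 4% oxazolone, a contact sensitizer, and 44 dedifferentiated HEC taken on day 7 after LTBR-Ig was given once (1 injection, intraperitoneal). LTBR-Ig is a fusion protein that blocks lymphotoxin beta receptor signalling. BEC were not profiled after either treatment, and the labels name no animal, pool, sex, age or chip for any cell. Each group was therefore treated as 1 sample, and differences between groups are given with the spread over cells and without a test. Inflamed cells 43 and 60 correlated at 0.988 over log2 values, against 0.701 for the next most similar pair among the cells of all groups. They were averaged into 1 cell, so 219 cells were analysed, 64 of them inflamed HEC.

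The ribosome is assembled in the nucleolus from ribosomal RNA and the proteins of both subunits, which are needed in fixed proportions. In mammals most of these proteins come from 1 expressed gene each, while retrocopies and pseudogenes of the same genes are scattered through the genome. Their mRNAs begin with a run of pyrimidines at the cap, the terminal oligopyrimidine (TOP) motif, through which mTOR signalling and Larp1 control their translation. High endothelial cells are the plump, secretory cells of the venules through which lymphocytes enter lymph nodes.

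The start regions of 7 members on which the results below turn, and of Rps6 beside them, are shown here, because they hold the bases round the listed transcript start, where a TOP motif would lie. They run from 15 bases before to 15 bases from the RefSeq start, on the transcript's strand of GRCm38.p6, and capitals mark the longest run of C and T. Rps6, the ribosomal substrate of S6 kinase, is shown for comparison, Rpl22 with Rpl22l1 and Rps27 with Rps27l are paralogue pairs, Rps2 and Rpl10a had large differences between groups, and Rpl41 had the highest level. The intervals are chr4:86857353-86857382 (minus strand) for Rps6, chr3:90213634-90213663 (minus) for Rps27, chr9:66946071-66946100 (plus) for Rps27l, chr4:152325711-152325740 (plus) for Rpl22, chr3:28805493-28805522 (plus) for Rpl22l1, chr17:24720048-24720077 (plus) for Rps2, chr17:28328456-28328485 (plus) for Rpl10a and chr10:128549154-128549183 (minus) for Rpl41.
Rps6: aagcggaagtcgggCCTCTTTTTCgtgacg
Rps27: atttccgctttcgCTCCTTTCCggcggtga
Rps27l: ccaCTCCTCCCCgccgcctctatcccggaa
Rpl22: ttcgCCCTgggaaaagcaatagctggccga
Rpl22l1: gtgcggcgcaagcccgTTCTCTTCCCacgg
Rps2: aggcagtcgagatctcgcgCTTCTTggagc
Rpl10a: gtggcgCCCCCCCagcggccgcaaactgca
Rpl41: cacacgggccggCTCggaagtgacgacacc

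The run spanned the listed start in Rps6 (10 bases) and Rps27 (9 bases), and it began after the start in Rpl22l1 (10 bases) and Rps2 (6 bases). It ended before the start in Rps27l (9 bases), Rpl10a (7 bases), Rpl22 (4 bases) and Rpl41 (3 bases). The listed start lay 1947 bases from the 5′ end of the gene in GENCODE M21 for Rps2, 137 for Rpl41, 72 for Rpl22l1, 45 for Rps6 and 16 or fewer for the others, and the annotation behind the deposited values is not stated, so these bases may not open the mRNAs that were counted. RefSeq windows were found for 63 of the 84 members, 75 windows in all. A run of 7 or more C or T within the 30 bases was present in 46.7% of the member windows and in 18.6% of all windows of that length. The motif CTTTC on the transcript strand was found in 22.7% of member windows against 3.74% of all windows. The longer motif TCTTTC, which contains CTTTC, was found in 10.7% against 1.03%. CTTCC stood at 18.7% against 7.19%, CTCTT at 17.3% against 3.7% and CCTTT at 16% against 3.09%. Over the full 300 bases and both strands, CCGGAAG, whose reverse complement contains CTTCC, was in 36% of member windows against 11.5% of all, and TATAA in 24% against 21.5%. These matches describe the letters in the windows and were not tied to any level below.

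High endothelial markers were higher in each HEC group than in BEC. By 1 or more on the log2 scale, this held for 7 of 7, among them Glycam1, Chst4 and Ackr1. Of all detected genes, 17% were higher than in BEC in homeostatic, 21.8% in inflamed and 11.3% in dedifferentiated HEC. Against homeostatic HEC, 5 of these 7 markers were lower among inflamed HEC (2.6% of all detected genes were) and 3 of 7 in dedifferentiated HEC (9.52%). Pecam1 was at an FPKM of 1 or more in every cell of the 4 groups. Of 10 blood endothelial markers, 3 were lower and 0 higher in homeostatic HEC than in BEC, against 4.4% and 17% of all detected genes. FPKM is fragments per kilobase of transcript and per 1000000 mapped fragments. The median cell had 2871 genes with FPKM values of 1 or above in BEC, 3842 in homeostatic HEC, 3961 among inflamed HEC and 3075 in dedifferentiated HEC. The depth was approximated from the smallest steps between low FPKM values, with group medians of 1872000 to 2194000 fragments per cell, so that 1 fragment of a member of median length (768 bases) was worth an FPKM of 0.593 to 0.696. Of the 6 pan-leukocyte markers, 5 were detected and 1 (Coro1a) was higher by 1 or more in homeostatic HEC than in BEC. The summed pan-leukocyte level had a median of 2.81 and ranged from 0 to 3213 over homeostatic HEC, and Ptprc was at 1 or more in 3.8% of them. At least 3 markers of another cell type were carried by 7 homeostatic HEC, 3 inflamed HEC, 1 dedifferentiated HEC and 1 BEC. Without these cells the counts of members reported below were 74 higher between homeostatic HEC and BEC, 5 lower in dedifferentiated HEC, and 2 higher and 1 lower among inflamed HEC. Over all genes, 17.3%, 9.43%, 6% and 2.7% were called in the same order.

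Ribosomal protein genes made up a larger part of the summed FPKM in HEC than in BEC. The share per cell had a lowest value, median and highest value of 4.88%, 7.83% and 14.6% in the 32 BEC. In the 79 homeostatic HEC these values were 6.28%, 11.2% and 19.01%. In the 64 inflamed HEC they were 7.32%, 12.96% and 22.3%, and in the 44 dedifferentiated HEC 7.04%, 11.9% and 17.8%. The ranges overlapped between all groups, yet 78 of 79 homeostatic, 63 of 64 inflamed and 43 of 44 dedifferentiated HEC lay above the median BEC. The means ± SD over cells were 8.01 ± 2.13% (BEC, n = 32), 11.7 ± 2.08% (homeostatic HEC, n = 79), 13.3 ± 3.13% (inflamed HEC, n = 64) and 11.8 ± 2.07% (dedifferentiated HEC, n = 44).

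**Figure D1:**
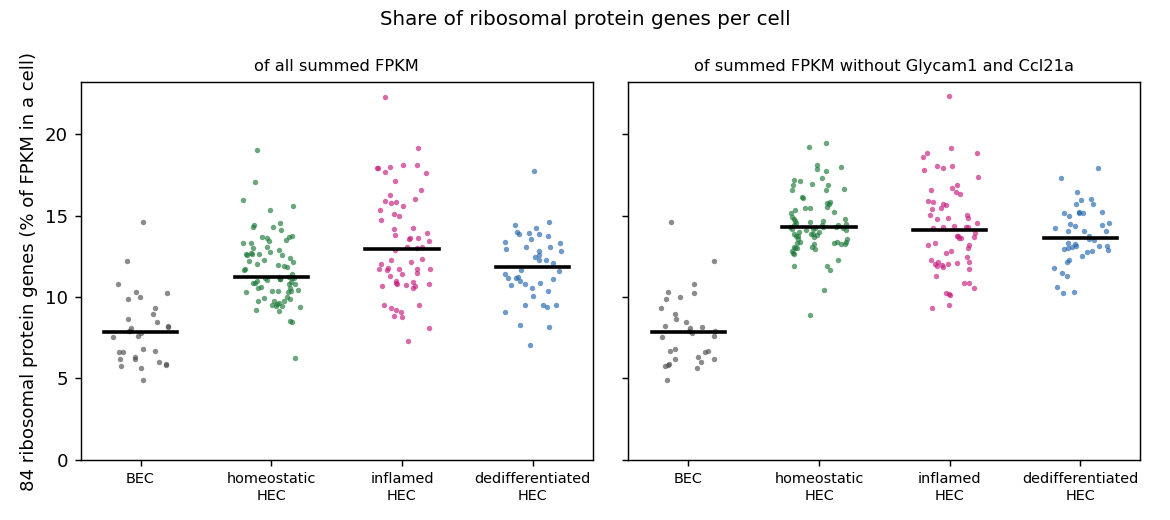
Percent of a cell's summed FPKM in the 84 ribosomal protein genes, by group, with 1 point per cell and a bar at the group median; the left panel uses all genes and the right panel leaves Glycam1 and Ccl21a out of the sum. The BEC median is 7.83% in both panels, while that of homeostatic HEC is 11.2% on the left and 14.3% on the right.

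Part of each HEC library was taken by Glycam1, a mucin-like ligand of L-selectin, and Ccl21a, a chemokine that draws lymphocytes to the venule wall. Together they held a median of 20.8% of the summed FPKM in homeostatic HEC, 4.06% among inflamed HEC, 11.8% in dedifferentiated HEC and 0.029% of it in BEC. With both left out of the sum, the median ribosomal protein share was 14.3% in homeostatic HEC, 14.1% among inflamed HEC, 13.6% in dedifferentiated HEC against 7.83% in BEC, and every HEC lay above the median BEC. The order of the HEC groups therefore depended on these genes: inflamed minus homeostatic HEC was 1.72 percentage points with them and -0.203 without them, and dedifferentiated minus homeostatic HEC was 0.626 with them and -0.663 without. The rank correlation over cells between the ribosomal protein share and the share of Glycam1 with Ccl21a was -0.713 in homeostatic HEC (n = 79), -0.661 among inflamed HEC (n = 64), -0.693 in dedifferentiated HEC (n = 44) and -0.076 in BEC (n = 32). Both shares have the same denominator, the summed FPKM of the cell, so a negative value follows in part from how they are made. With the number of detected genes, which shares the library, the rank correlation of the share was 0.150 in BEC, 0.010 in homeostatic HEC, 0.171 among inflamed HEC and -0.050 in dedifferentiated HEC.

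Large and small subunit genes kept a similar proportion in every group. The log2 ratio of summed large to summed small subunit FPKM had a median of 0.42 in BEC (range -0.40 to 1.26), 0.36 in homeostatic HEC (-0.07 to 0.64), 0.33 among inflamed HEC (-0.50 to 0.61) and 0.39 in dedifferentiated HEC (0.04 to 0.77). Its SD over cells was 0.36 in BEC and 0.15 to 0.18 in the HEC groups, and the group medians lay closer together than the SD within any group. Across cells the large and small subunit shares had a Pearson correlation of 0.761 in BEC, 0.859 in homeostatic HEC, 0.865 among inflamed HEC and 0.758 in dedifferentiated HEC, over cells that share a denominator within each library. These sums run over 51 large and 33 small members. The difference of the mean log2(FPKM + 1) over large and over small members was -0.57 in BEC and -0.63, -0.68 and -0.58 in homeostatic, inflamed and dedifferentiated HEC, with the 3 large subunit members described next at or near 0.

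Nearly all members were detected in nearly every cell. Members at an FPKM of 1 or more numbered 72 to 82 of 84 in BEC (median 79), 78 to 82 in homeostatic HEC (median 80), 77 to 81 among inflamed HEC (median 80) and 77 to 81 in dedifferentiated HEC (median 79). In every comparison 81 members passed the detection filter, an FPKM of 1 or more in over 10% of the cells of either group compared. The 3 others are paralogues known from other tissues. Rpl3l, the form of striated muscle, was listed at 0 in all 219 cells, and Rpl10l, a testis form, was above 0 in 1 cell at 0.78. Rpl39l, also known from testis, was above 0 in 5 cells and reached 123.8 in a homeostatic HEC.

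Rpl41, the smallest ribosomal protein, had the highest level. Its FPKM was 324 to 3518 in BEC (median 1426), 1314 to 6684 in homeostatic HEC (median 3323), 319 to 8563 among inflamed HEC (median 3662) and 1857 to 8081 in dedifferentiated HEC (median 3446). Rps14, a protein of the small subunit platform, Rps18, and Rps19, whose human counterpart is mutated in Diamond-Blackfan anaemia, were also among the highest. Rps19 had a median of 946 in BEC, 1695 in homeostatic HEC, 1875 among inflamed HEC and 1667 in dedifferentiated HEC. At the other end, Rpl7l1, Rps15a, Rpl22, Rpl22l1 and Rps27l were the lowest members that reached an FPKM of 1 in at least 50% of the cells of a group. Across the 80 members that met this limit, transcript length and mean level were nearly unrelated, with a rank correlation over genes of 0.042 to 0.082 by group.

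Between homeostatic HEC and BEC, ribosomal protein genes were higher in HEC almost without exception, and the difference was spread over both subunits. A gene was called at a difference of mean log2(FPKM + 1) of 1 or more. Of 81 members passing the filter, 74 were higher in homeostatic HEC and 0 lower, where 17% of 9248 detected genes were higher and 4.4% lower by this rule. The median member differed by 1.63, against 0.28 for all detected genes. In the large subunit 43 of 48 members were called and in the small subunit 31 of 33.

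Rpl10a, which forms the mobile L1 stalk beside the exit site for tRNA, had the largest difference. Its FPKM was 0 to 1654 in BEC (median 51.2) and 2.9 to 1324 in homeostatic HEC (median 369). The HEC range lay within that of BEC, but 26 of 32 BEC and 79 of 79 homeostatic HEC were at 1 or more, and the difference of means was 3.41 (SD over cells 3.26 in BEC and 1.43 in HEC). Rpl26, at the rim of the polypeptide exit tunnel, had a median of 356 in BEC (0 to 1447) and 1155 in homeostatic HEC (61.7 to 2493), a difference of 2.78. The groups overlapped, and 4 BEC but 0 homeostatic HEC were under 1. Rplp0, the base of the ribosomal stalk, had medians of 525 (3.94 to 2337) and 1366 (159 to 3181), a difference of 2.64. Rpl36a, a large subunit protein near the tRNA exit site, differed by 2.62 and Rpsa, the small subunit protein also called the laminin receptor, by 2.55.

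The role groups had differences of similar size in this comparison. All 4 stalk genes, which recruit elongation factors, were called higher, with Rpl12 at 2.35, Rplp2 at 1.33 and Rplp1 at 1.27. Both genes of the 5S ribonucleoprotein, which also binds Mdm2, were higher: Rpl11 by 2.27 and Rpl5 by 1.41. All 8 exit tunnel genes were higher, from 1.13 for Rpl31 to 2.78 for Rpl26. The 3 mRNA entry channel genes were called higher, with 1.61 for Rps2 and 1.37 for Rps23, and Rps27a and Fau, whose ribosomal proteins are made as fusions to ubiquitin or a ubiquitin-like protein, differed by 1.38 and 1.35. Gnb2l1, the older symbol of the small subunit scaffold Rack1, differed by 3.52.

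The members with the smallest positive differences were Rpl7l1 (0.44), Rps21 (0.53), Rpl21 (0.63), Rpl7 (0.82) and Rpl8 (0.84). Rps4l, a pseudogene row treated here as a paralogue of the X-linked Rps4x, was the single member that was lower in homeostatic HEC, at -0.84. It was at 1 or more in 15 of 32 BEC and 28 of 79 homeostatic HEC, with medians of 0.655 and 0.42.

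**Figure D2:**
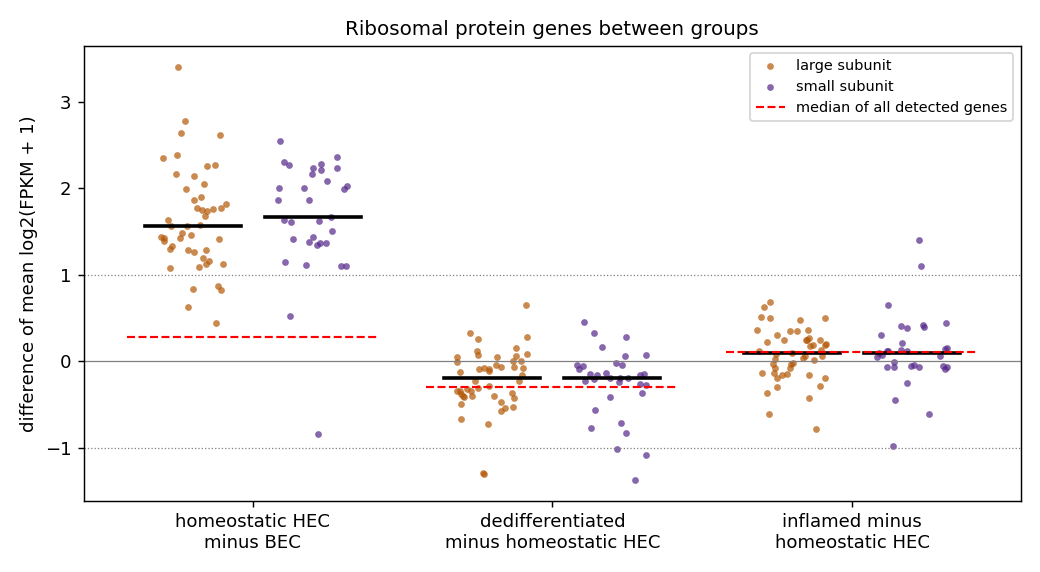
Difference of mean log2(FPKM + 1) between groups for the 81 ribosomal protein genes that passed the detection filter, with 1 point per gene, black bars at the median of each subunit, a red dashed line at the median of all detected genes and dotted lines at -1 and 1. The homeostatic HEC minus BEC values lie above the all-gene median of 0.28 for 80 of 81 genes, while 51 of 81 do so for dedifferentiated and 39 of 81 for inflamed minus homeostatic HEC.

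The size of this difference depended on the scale. The summed FPKM of a cell had a median of 469532 in BEC and 664817 in homeostatic HEC. With the log2 ratio of arithmetic means, which weighs cells with high values more, 37 members were higher by 1 or more, the median member differed by 0.95 and 26.4% of all genes were called higher. With every cell rescaled to a sum of 1000000, 49 members were higher and 1 lower, against 14.9% and 7.51% of all genes, and the median was 1.21. With the rows of near copies described below added to their members, 72 members were higher and 0 lower, against 17% and 4.4% of all genes. Every member called higher under these settings was among the 74.

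BEC differed from HEC in how often a member was low in a single cell as well as in its usual level. Among the 81 members, the number under an FPKM of 10 in a cell was 0 to 22 in BEC (median 9), 0 to 5 in homeostatic HEC (median 2), 0 to 6 among inflamed HEC (median 1.5) and 1 to 15 in dedifferentiated HEC (median 3). It reached 10 or more in 15 of 32 BEC, in 1 dedifferentiated HEC and in no other cell. Over BEC this number had a rank correlation of -0.830 with the number of genes detected (n = 32), and -0.532, -0.555 and -0.354 over homeostatic, inflamed and dedifferentiated HEC; both counts come from the same libraries. The part of library quality in the difference between BEC and HEC was not tested. Among cells with 2500 to 4500 detected genes, 66 members were higher in homeostatic HEC, the median difference was 1.37, and 13.7% of all genes were called higher.

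The spread over cells was also widest in BEC. The median SD of log2(FPKM + 1) over 80 members was 2.14 in BEC, 0.78 in homeostatic HEC, 0.87 among inflamed HEC and 1.18 in dedifferentiated HEC. It was wider in BEC than in homeostatic HEC for 79 of 80 members, the exception being Rpl7l1. Among genes with a mean of 7 or more, members and other genes had nearly equal spread in BEC, with a median SD of 1.97 for 59 members and 2.22 for 142 others. In homeostatic HEC it was 0.77 for 75 members and 1.71 for 248 others, among inflamed HEC 0.86 for 76 and 1.63 for 275, and in dedifferentiated HEC 1.17 for 75 and 2.04 for 190.

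Rps19, Rps29, Rps14, Rps23 and Rps25 had the narrowest spread in homeostatic HEC, all of them small subunit genes. Rps29 lay between 770 and 3252 over all 79 cells, with a median of 1912 and an SD of 0.43. Rps27, Rpl30, Rps27l, Rpl7l1 and Rpl22l1 had the widest spread, with an SD of 3.77 for Rps27. The median pairwise correlation of members over cells was 0.128 in BEC, 0.118 in homeostatic HEC, 0.192 among inflamed HEC and 0.081 in dedifferentiated HEC, weak values that are given as a description over cells of 1 library each.

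**Figure D3:**
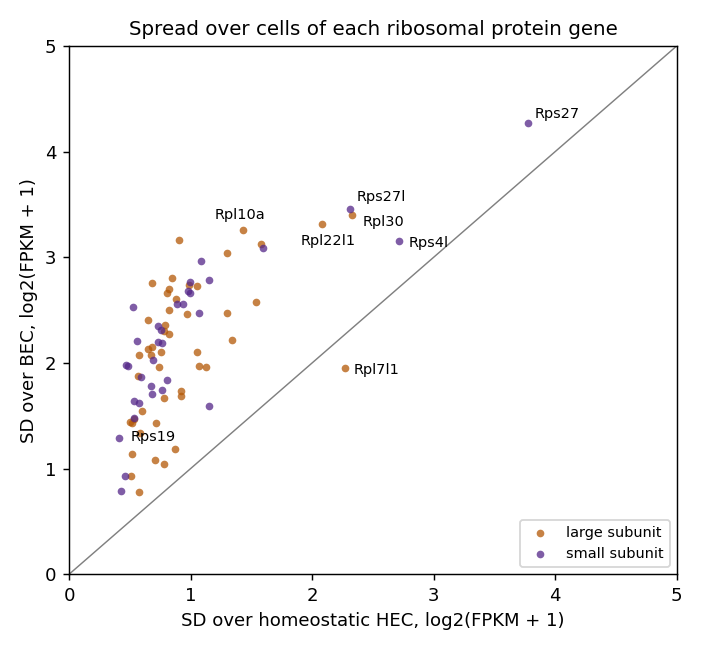
SD over cells of log2(FPKM + 1) for each ribosomal protein gene that passed the filter, in homeostatic HEC (horizontal axis) and BEC (vertical axis), with a line at equal values and colours for the subunits. The points lie above the line, with Rpl7l1 below it, and Rps27 has the widest SD on both axes (3.77 and 4.27).

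The wide spread of Rps27, a zinc-binding small subunit protein, came with a near-identical row. Rps27rt on chromosome 9, annotated as protein coding, shares 98.7% of the 30-base words of the Rps27 transcript. The FPKM of Rps27 ran from 0 to 3230 in homeostatic HEC (median 927) and was under 10 in 13 of 79 cells. In these 13 cells Rps27rt lay between 662 and 3891. In the other groups Rps27 was under 10 in 8 BEC, 15 inflamed and 12 dedifferentiated HEC, and Rps27rt was at least 650 in each of them. No cell had a sum of both rows under 541.6, and the SD of the sum was 0.49 in homeostatic HEC, 0.76 in BEC, 0.57 among inflamed HEC and 0.44 in dedifferentiated HEC. How reads that match several transcripts were assigned is not given in the sources used here, so the level of Rps27 alone is uncertain.

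**Figure D4:**
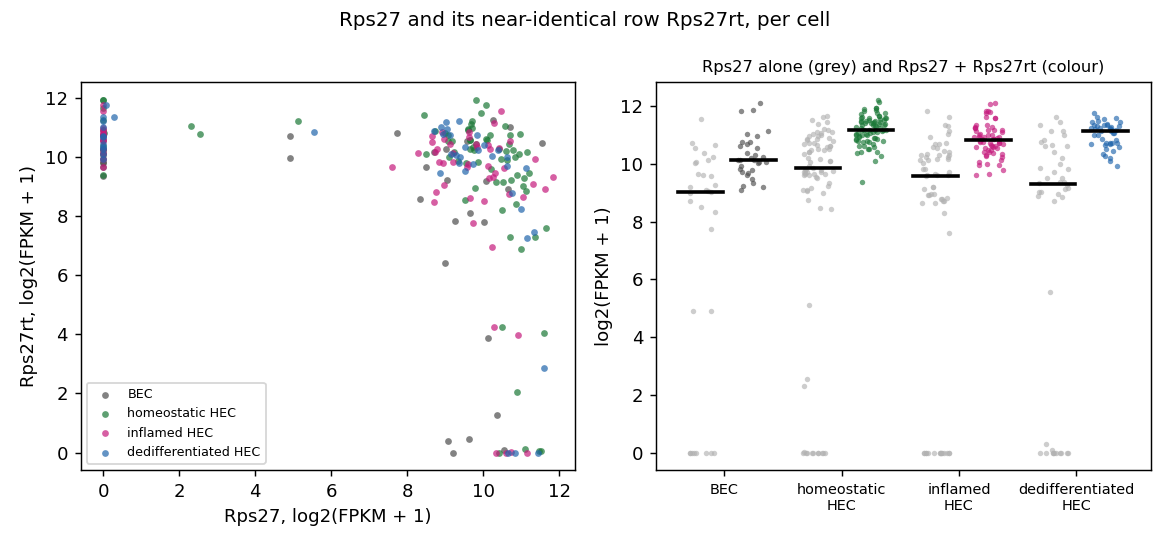
Left, log2(FPKM + 1) of Rps27 against Rps27rt, with 1 point per cell coloured by group; right, Rps27 alone (grey) and the sum of both rows (colour) by group, with bars at the medians. Cells near 0 on the horizontal axis are high on the vertical axis, and the sum has an SD of 0.44 to 0.76 where Rps27 alone has 3.77 to 4.53.

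A search of the annotation for transcripts that share at least 20% of a member's 30-base words, a limit chosen after the data were seen, found copies for 74 of 83 members with a coding transcript. Of 471 annotated copies, 12 have a row in the table under the same symbol, for 11 members, and the other 459 matched no row by symbol. At the median homeostatic HEC, Gm12191 took 73.5% of the FPKM of Rpl30 and itself and at the median dedifferentiated HEC 39.7%. The SD of Rpl30, a large subunit protein, was 2.33 in homeostatic HEC alone and 0.75 for the sum. Rps15a-ps4 and Rps15a-ps6 took a median of 70.5% of the sum with Rps15a in homeostatic HEC. For Rpl26, Gm15772 was above the member in 3 homeostatic HEC, and the correlation of both rows over cells was -0.60. The copies of Rpl14, Rpl22l1, Rpl31 and Rps26 held between 0.098% and 12.9% of their sums at the median of a group, that of Rpl34 between 9.91% and 25.3%, and those of Rplp2 (Wdr89) and Rps2 (Gm10653) held 0.

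Dedifferentiated and homeostatic HEC had similar levels of most members. The comparisons of dedifferentiated and of inflamed HEC share the homeostatic HEC, so their values are given side by side without a measure of likeness. Of 81 members, 5 were lower by 1 or more in dedifferentiated HEC and 0 higher, where 9.52% of 9008 detected genes were lower and 0.833% higher. The 5 lower members are 6.17% of those that passed, a smaller share than over all genes. The median member differed by -0.19 and the median gene by -0.30.

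The 5 were Rps27 (-1.37), Rpl7l1 (-1.31), Rpl22l1 (-1.29), Rps27l (-1.08) and Rps15a (-1.01), which are also among the lowest or most variable members. With near-copy rows added to their members, Rps27 differed by -0.18 and Rps15a by -0.75, and the 3 paralogues Rpl7l1, Rpl22l1 and Rps27l remained, at -1.31, -1.28 and -1.08. Among cells with 2500 to 4500 detected genes, 4 members were lower, where 6.66% of all genes were, and Rps27l was not called. Over 10 other settings, Rpl7l1 and Rpl22l1 were lower by 1 or more in 8, and Rps27, Rps27l and Rps15a in 7. With a pseudocount of 10, 0 members were called, where 1.32% of all genes were lower and 0.211% higher. With arithmetic means 0 members were called as well, where 18.4% of all genes were lower and 15.1% higher. The largest positive value belonged to Rpl30 (0.65), and it was -0.28 with Gm12191 added. Rps2 at 0.45 and Rpsa and Rpl36 at 0.33 each were also among the most positive.

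Rpl22l1 differed more between dedifferentiated and homeostatic HEC than its parent Rpl22, an RNA-binding large subunit protein studied in lymphocyte development. Rpl22l1 had an FPKM of 0 to 835 in homeostatic HEC (median 122.7), 0 to 526 in dedifferentiated HEC (median 76), 0 to 625 among inflamed HEC (median 147) and 0 to 807 in BEC (median 73.8). Rpl22 had medians of 31.9, 32.5, 35.3 and 14 in the same order, and it differed by -0.07 between dedifferentiated and homeostatic HEC. The mean log2 excess of Rpl22l1 over Rpl22 was 1.64 ± 2.51 in homeostatic HEC (SD over cells, n = 79), 0.43 ± 2.84 in dedifferentiated HEC (n = 44), 1.40 ± 2.42 among inflamed HEC (n = 64) and 1.76 ± 4.12 in BEC (n = 32). Rpl22l1 exceeded Rpl22 in 62 of 79 homeostatic and 28 of 44 dedifferentiated HEC. The difference between the groups is smaller than the SD over cells in each, and the ranges overlap.

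Rps27l, a paralogue of Rps27 known as a p53 target, had a median FPKM of 175 in homeostatic HEC (0 to 1171), 90.9 in dedifferentiated HEC (0 to 743), 271 among inflamed HEC (0 to 1794) and 23 in BEC (0 to 625). It was at 1 or more in 76 of 79 homeostatic and 42 of 44 dedifferentiated HEC, so the shares of cells with it were close. Rpl7l1, a paralogue of Rpl7, was at 1 or more in 71 of 79 homeostatic HEC (89.9%, exact Clopper-Pearson interval 81.0% to 95.5%) and 34 of 44 dedifferentiated HEC (77.3%, 62.2% to 88.5%). The intervals cover counting error over cells alone, and they overlap. The medians of Rpl7l1 were 13.5 and 2.42, while Rpl7 had 1890 and 1538.

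**Figure D5:**
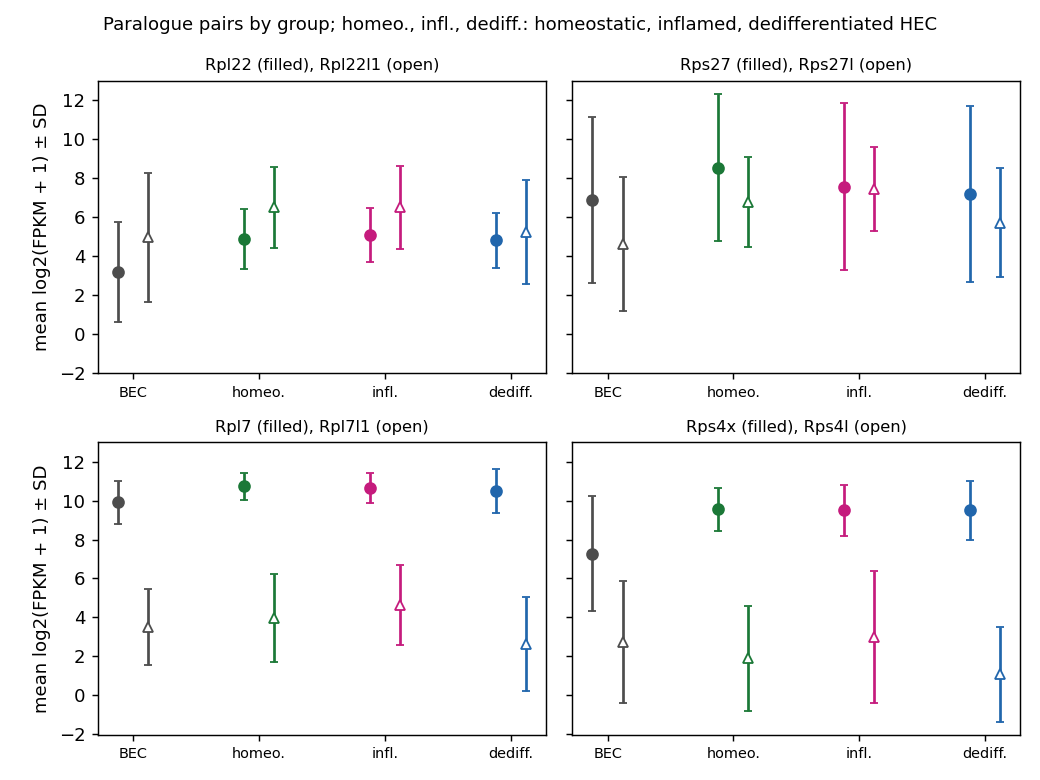
Mean log2(FPKM + 1) with bars of 1 SD over cells for 4 parent genes (filled circles) and their paralogues (open triangles) in BEC and in homeostatic, inflamed and dedifferentiated HEC. Rpl22l1 lies above Rpl22 by 1.64 in homeostatic and 0.43 in dedifferentiated HEC, and the SD bars of both overlap.

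In inflamed HEC, 2 members were higher than in homeostatic HEC by 1 or more and 0 lower, where 5.48% of 9525 detected genes were higher and 2.6% lower. The 2 members are 2.47% of those that passed, a smaller share than over all genes, and the median member and the median gene both differed by 0.10. Rps2, a protein of the mRNA entry channel, had an FPKM of 132 to 3596 among inflamed HEC (median 1145), 0.94 to 1451 in homeostatic HEC (median 501), 27.7 to 2509 in dedifferentiated HEC (median 697) and 0.55 to 1796 in BEC (median 291). Its ranges overlapped, and the lowest inflamed cell lay far above the lowest of the other groups. The difference was 1.41 (SD over cells 0.97 in inflamed and 1.59 in homeostatic HEC), and it was 1.17 to 1.49 over 10 other settings. The other entry channel genes, Rps3 and Rps23, each differed by -0.07.

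The second member, the pseudogene row Rps4l, differed by 1.11, with medians of 0.97 among inflamed and 0.42 in homeostatic HEC. It was at 1 or more in 31 of 64 inflamed HEC (48.4%, Clopper-Pearson 35.8% to 61.3%), 28 of 79 homeostatic HEC (35.4%, 25.001% to 47.01%), 8 of 44 dedifferentiated HEC (18.2%, 8.19% to 32.7%) and 15 of 32 BEC (46.9%, 29.1% to 65.3%). With a pseudocount of 10 its difference was 0.67 and Rps2 alone was called. Rps4x had a median of 843 in homeostatic and 912 among inflamed HEC, and its paralogue exceeded it in 4 BEC, 1 inflamed HEC and no other cell.

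Smaller positive values among inflamed HEC belonged to Rpl7l1 (0.68), Rps27l (0.65), Rpl27a (0.63) and Rpl29 (0.51), the last of which binds heparin. The most negative were Rps27 (-0.98, or -0.35 with Rps27rt added), Rpl3 (-0.79), the peptidyl transferase centre protein, Rpl9 (-0.61), Rps13 (-0.61) and Rps14 (-0.44). Rpl3 had a median of 1041 among inflamed HEC (3.95 to 3493) and 1343 in homeostatic HEC (115 to 2797), and its SD was 1.77 against 0.79. The lowest inflamed cells thus lay below every homeostatic cell.

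Against BEC, the treated HEC groups had counts near that of homeostatic HEC or below it. Inflamed HEC had 74 of 81 members higher than BEC and 0 lower (21.8% and 3.87% of 9357 genes) and dedifferentiated HEC 59 higher and 1 lower (11.3% and 9.45% of 8385 genes), the lower one being Rps4l at -1.66. Between inflamed and dedifferentiated HEC, 5 members were higher among inflamed HEC and 0 lower, where 15.8% of 9167 genes were higher and 1.32% lower.

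Other genes of translation were read from lists chosen by function. Over all detected genes, 17% were higher and 4.4% lower in homeostatic HEC than in BEC. Of 15 elongation factors and other genes with TOP mRNAs, 12 were higher in homeostatic HEC than in BEC and 0 lower, with a list median of 1.63 equal to that of the ribosomal protein genes. The largest were Npm1, a nucleolar chaperone (3.55), and Pabpc1, the poly(A) binding protein (2.90), while Eef1a1 (0.95), Eif4b (0.63) and Eef2 (0.47) were not called. Of 21 initiation factors 14 were higher, led by Eif5a (2.98) and Eif3i (2.40), with a median of 1.52. Ribosome biogenesis genes had 8 higher and 1 lower of 20 and a median of 0.74; Nop10, a small nucleolar ribonucleoprotein subunit, differed by 1.84, Nop58 by 1.77 and Ubtf, a factor of RNA polymerase I, by -1.28. Among 10 genes of translation control, Eif4ebp1 (2.71), Eif4e (2.56) and Mycn (1.94) were higher, while Larp1 (0.30) and Mtor (0.23) were not called.

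In dedifferentiated HEC, 8 of 21 initiation factors were lower than in homeostatic HEC, where 9.52% of all detected genes were lower. The list median was -0.73, against -0.19 for the ribosomal protein genes and -0.30 for all genes. Eif3l (-1.83) and Eif4g2 (-1.38) were the lowest with Eif3c (-1.38). Of the 15 TOP genes, Hnrnpa1 (-1.60), Pabpc1 (-1.51) and Eif3f (-1.39) were lower and the list median was -0.23. Of 20 biogenesis genes, Nop58 (-1.36), Ncl (-1.28) and Nip7 (-1.07) were lower, and Mycn (-2.14), Eif4e (-1.20) and Eif4ebp1 (-1.09) were lower in the control list. The summed FPKM of the initiation factors had a median of 2580 in dedifferentiated and 2690 in homeostatic HEC. It was 7960 and 8071 for TOP genes, 643 and 514 for biogenesis genes, and 116 and 216 for control genes. The median cell had 3075 and 3842 detected genes in the same order. The part of this in the list differences was not tested. In inflamed HEC, Pes1 (1.40), Dkc1 (1.12) and Fbl (1.02) of 22 biogenesis genes, all of them nucleolar, were higher. Among the initiation factors Eif5a was higher (1.11) and Eif4a2 lower (-1.47). Of 15 TOP genes 0 were called, and Mycn was lower (-1.27). Over all detected genes, 5.48% were higher and 2.6% lower in inflamed than in homeostatic HEC.

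A list of dissociation and heat shock genes, which holds Fos and Hspa1a, also differed between the groups. In homeostatic HEC 10 of 14 were higher and 1 lower than in BEC. Against homeostatic HEC, 5 of 14 were lower in dedifferentiated and 8 of 14 lower among inflamed HEC. Over all detected genes, 17%, 4.4%, 9.52% and 2.6% were called in the same order. The part of the listed genes in the values of the ribosomal protein genes was not tested.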

How the data were processed

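RNA from single endothelial cells of 4 groups was made into libraries with the Nextera XT kit, per the labels' protocols. The submitters' processing notes name CASAVA 1.8, RSEM 1.2.18 and the genome build mm10. For their roles, the annotation, the filters and the handling of reads with several matches, nothing is stated in the sources used. The authors deposited 1 table of FPKM values for 24049 genes and 220 cells, with 2 decimals; no counts were used, so depth was approximated from the steps between low FPKM values.

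Values were analysed here as log2(FPKM + 1), a pseudocount of 1, which understates differences of low genes. The deposited FPKM values themselves were used for shares, ranges and sums. A group difference is the difference of mean log2 values over cells, called at 1 or more in size, for genes whose FPKM was 1 or above in over 10% of the cells of at least 1 group compared. No animal is named, each group counts as 1 sample, and no test was run; SDs and intervals describe cells. Named genes were the 5 highest and 5 lowest members, the 5 most positive and 5 most negative differences in each main comparison, the 5 widest and 5 narrowest spreads in homeostatic HEC, all paralogue pairs, the role lists, and the 2 most extreme genes of each other translation list in each direction; further genes were named after their values were seen, and some genes that the rule picks are not reported here. The members and lists were chosen with earlier results of these data known. Near copies were found by shared 30-base words in GENCODE M21 transcripts (GRCm38, the same assembly as mm10); promoter windows came from RefSeq (GRCm38.p6). In data simulated by drawing homeostatic HEC again, 197 of 200 genes changed by 2 on the log2 scale were recovered over 9107 genes. Group sizes were those of the dedifferentiated against homeostatic comparison. The change exceeded the limit of 1 and was put into genes detected in most cells, so this recovery does not cover weaker changes or lower genes. It was made on log2(FPKM + 1), the scale of the measure itself, so recovery was largely fixed in advance and checks the calculation alone. Of the unchanged genes, 2.44% also passed a difference of 1. Python 3.11.15, pandas 2.3.3, numpy 2.4.6, scipy 1.17.1 and matplotlib 3.10.9 were used.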

Additional observations from a re-analysis of the deposited data

How the results depend on the processing

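Each group is 1 sample, so no value here carries a test between conditions, and the animals, chips and dates behind the cells cannot be told apart from the groups. The alternatives were other pseudocounts, arithmetic means, rescaled cells, no filter, cell subsets and other denominators; near-copy rows were added after seeing the data. Compared with the reported values, 176 kept their direction and size, 26 moved and 15 changed sign. No paired analysis was possible because the result comes from no test and the cell numbers only name cells.

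Without Glycam1 and Ccl21a in the sum, the median share in homeostatic HEC was 14.3%, and the differences of median share were 6.48 (homeostatic HEC minus BEC), -0.663 (dedifferentiated minus homeostatic) and -0.203 (inflamed minus homeostatic) percentage points. The large over small ratio taken from mean log2 values was -0.57 in BEC and -0.63, -0.68 and -0.58 in homeostatic, inflamed and dedifferentiated HEC; this form weighs every gene equally.

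For homeostatic HEC against BEC, 37 members were higher with arithmetic means (26.4% of all genes) and 49 after rescaling to 1000000 (14.9%). With a pseudocount of 0.1, with either rescaling, and in cells with 2500 to 4500 genes, 1 member was lower, where 5.86% to 9.02% of all genes were. For dedifferentiated against homeostatic HEC, 0 members were lower with a pseudocount of 10 (1.32% of all genes) or arithmetic means (18.4%) and 3 with near-copy rows added (9.5%). In cells with 2500 to 4500 genes, 4 members were lower (6.66%). The median member relative to all genes was -0.063 with a pseudocount of 10 and -0.16 with no filter, which adds undetected genes. For inflamed against homeostatic HEC, 1 member was higher with a pseudocount of 10 (1.19% of all genes). In this comparison 1 was lower with a pseudocount of 0.1, after rescaling without Glycam1 and Ccl21a, in cells with 2500 to 4500 genes, and without cells carrying markers of other types. Over all genes, 2.7% to 6.04% were lower under these 4 settings. The median member there was -0.026 after rescaling without Glycam1 and Ccl21a. Relative to all genes it was 0.065 with a pseudocount of 10, 0.028 with arithmetic means, 0.037 after rescaling, 0.081 with no filter and 0.018 in cells with 2500 to 4500 genes. The cause of these shifts was not tested.

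With detection set at an FPKM of 10, Rpl22l1 was found in 89.9% of homeostatic, 89.1% of inflamed and 70.5% of dedifferentiated HEC. Rps27l was found in 56.2% of BEC, 87.3% of homeostatic and 75% of dedifferentiated HEC. Rpl7l1 was found in 34.4% of BEC, 56.96% of homeostatic, 67.2% of inflamed and 22.7% of dedifferentiated HEC. The mean log2 excess of Rps27l over Rps27 in inflamed HEC was -0.105 with a pseudocount of 1 and 0.59 with a pseudocount of 0.1. Rps27l exceeded Rps27 in 18 of 64 inflamed HEC. In 15 inflamed HEC Rps27 was under 10 while Rps27rt was at least 801.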
